A study of Mus musculus with 34 samples.

Results

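The genes described here were 38 genes of the cell division cycle, 27 that act in mitosis and 11 that act in DNA replication, of 20141 named genes on the array. They were chosen by name. Each was matched to its probes through the RefSeq accession that the array design gives, which yielded 49 probes of 55681, and 8 of the genes had more than 1 probe. A gene with several probes was represented by the probe with the highest median signal over all fractions. Values are log2 normalised signals, the log2 of the probe's signal less that of the array's 75th percentile, so that 0 is a probe at that percentile and a difference of 1 is a doubling. Levels of different probes cannot be set against each other, and only differences of 1 probe between fractions are compared.

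The brains of 3 male C57BL/6J mice were cut into serial fractions at 3 days after birth, a separate brain for each plane: coronal (mouse 1, 15 fractions), horizontal (mouse 2, 8 fractions) and sagittal (mouse 3, 11 fractions). Every fraction pooled 100 cryosections of 5 µm, a slab 500 µm thick, except that sagittal fractions 1 and 11 each joined 2 such slabs. The RNA of each of the 34 fractions was hybridised to 1 one-colour array of whole-genome probes. No mouse carried an engineered allele or received an agent, and the study sought to map every transcript in space from such slabs.

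The labels number the fractions without saying at which end the count starts. Coronal fractions 1 to 3 carried the markers of the hindbrain, with a summed log2 level of the 10 hindbrain and caudal genes (the Hox genes Hoxa2 to Hoxc4 among them, and En1 and En2) of 5.33 to 6.45, against -1.56 to -0.23 in coronal fractions 13 to 15. The hindbrain sum did not end at fraction 3: it was 4.46 in fraction 4 and 2.55 in fraction 5, and ran from -2.15 to 4.46 over fractions 4 to 12. The 7 forebrain genes were lowest in fractions 1 to 3, at 1.77 to 2.66 against 6.03 to 7.16 in fractions 13 to 15, so that the brain tissue in the labels carried its own regional markers. Between 29598 and 37091 of 59305 spots were well above background on an array. There was 1 array for each fraction and 1 mouse for each plane. Tests therefore used neighbouring fractions of 1 brain in the place of replicates, and their p-values measure the spread between slabs, not between animals. A slab mixes many cell types, and fewer cells of a type and less RNA per cell cannot be told apart in it.

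A dividing cell copies its DNA once and then parts it. The MCM proteins load on origins as a ring-shaped helicase, PCNA clamps the polymerase to DNA, and ribonucleotide reductase and thymidylate synthase supply the building blocks, under the transcription factor E2F1. Cyclin B with CDK1 then drives mitosis, kinases such as PLK1 and the Aurora proteins build the spindle, kinesins move it, and the anaphase-promoting complex with CDC20 and UBE2C ends it. In the newborn mouse most neurons have already left the cycle, but granule cell precursors on the surface of the cerebellum, progenitors of the subventricular zone and dentate gyrus, and glial precursors still divide.

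Of the 38 genes, 34 (24 of mitosis, 10 of replication) were well above background in all 34 fractions. Ttk, the spindle checkpoint kinase also called Mps1, was above background in 21 fractions and Cenpf, a kinetochore protein, in 18. Aurkb and Ccne2 (Aurora B and cyclin E2) were well above background in 0 fractions and have no usable level. For testing, a probe had to be above background somewhere in each of the 3 brains, which held for 36 of the 38.

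The regulatory sequences of the genes that differed most along the coronal axis are shown first, since both groups of genes are known for promoter elements of their own. Mitosis genes often carry TTTGAA, the cell cycle homology region, and CCAAT boxes, the sites of NF-Y. Replication genes often carry the E2F site, searched here as TTTNNCGC. The promoters of 32 of the 38 genes were found by symbol in the RefSeq table of mouse GRCm38.p6, with Ccna2, Aurkb, Kif20a, Tpx2, Mcm4 and Ccne2 unmatched. The 250 bases before the transcription start are given for the 2 mitosis and the 2 replication genes with the largest called differences between coronal fractions 1 to 3 and 4 to 12. They run 5′ to 3′ along the gene's strand, and capitals mark matches to TTTGAA, to CCAAT or to TTTNNCGC on either strand.
Mki67, chr7:135716380-135716629, minus strand: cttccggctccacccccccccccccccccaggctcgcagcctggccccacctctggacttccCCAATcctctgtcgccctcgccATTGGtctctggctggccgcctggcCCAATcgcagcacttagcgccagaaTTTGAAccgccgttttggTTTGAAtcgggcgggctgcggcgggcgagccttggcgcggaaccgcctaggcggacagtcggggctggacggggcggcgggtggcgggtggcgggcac
Top2a, chr11:99024190-99024439, minus strand: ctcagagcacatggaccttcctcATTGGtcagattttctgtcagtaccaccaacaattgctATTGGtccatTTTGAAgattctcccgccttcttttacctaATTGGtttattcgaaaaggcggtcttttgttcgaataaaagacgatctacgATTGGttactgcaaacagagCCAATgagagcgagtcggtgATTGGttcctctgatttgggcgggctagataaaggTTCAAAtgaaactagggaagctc
Mcm3, chr1:20820313-20820562, minus strand: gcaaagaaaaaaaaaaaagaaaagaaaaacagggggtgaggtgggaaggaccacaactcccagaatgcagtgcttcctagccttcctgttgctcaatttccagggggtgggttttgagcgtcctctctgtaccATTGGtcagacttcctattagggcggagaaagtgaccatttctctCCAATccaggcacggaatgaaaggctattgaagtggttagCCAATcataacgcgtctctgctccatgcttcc
Mcm2, chr6:88898781-88899030, minus strand: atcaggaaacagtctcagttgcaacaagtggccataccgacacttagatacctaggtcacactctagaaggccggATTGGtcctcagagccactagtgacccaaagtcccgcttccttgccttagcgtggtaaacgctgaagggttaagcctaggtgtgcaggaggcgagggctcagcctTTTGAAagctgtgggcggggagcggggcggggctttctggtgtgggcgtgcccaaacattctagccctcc

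Mki67 (the proliferation antigen Ki-67) and Top2a (topoisomerase II alpha) each held 2 copies of TTTGAA, and Mcm2 held 1. All 4 promoters held CCAAT, and the 2 E2F matches of Mcm3 lay at 20 and 39 bases after the start, beyond the bases printed. Over windows of 300 bases (250 before the start and 50 after it), TTTGAA stood in 17 of 23 mitosis promoters (73.9%) and in 1 of 9 replication promoters (11.1%), against 18.1% of all 27025 promoters. CCAAT stood in 20 of 23 (87.0%) and 7 of 9 (77.8%), against 37.9% of all. TTTNNCGC stood in 1 of 23 mitosis promoters (4.35%), that of Cdk1, and in 5 of 9 replication promoters (55.6%), those of Mcm3, Mcm5, Mcm6, Mcm7 and Tyms, against 5.27% of all. TTTGAA and CCAAT together stood in 16 of 23 (69.6%) and 1 of 9 (11.1%), against 7.12% of all. These matches are a description of the letters in the windows. The shares of TTTGAA and of the E2F site differed between the 2 groups of genes in opposite directions, and the signals of the groups are given apart below.

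Both groups were highest in the same place. For each gene the signal was expressed relative to that gene's own mean over the 34 fractions, and the genes above background throughout were averaged. In coronal fraction 1 the 24 mitosis genes averaged 1.61 above their own mean on the log2 scale, 3.06-fold, and the 10 replication genes 1.23, 2.35-fold. Coronal fraction 2 followed at 1.15 and 0.82, and coronal fraction 3 at 0.70 and 0.41. All 24 mitosis and all 10 replication genes were above their own mean in each of these 3 fractions.

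Away from that end, the coronal means fell below 0 and stayed there for 8 fractions. In coronal fractions 4 to 11 the mitosis mean ran from -0.45 (fraction 7) to -0.13 and the replication mean from -0.36 to -0.12. Coronal fraction 12 rose to 0.47 and 0.36, with 24 of 24 mitosis and 9 of 10 replication genes above their own mean. Fractions 13 to 15 lay at 0.07 to 0.18 for mitosis and at 0.06 to 0.24 for replication.

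**Figure D1:**
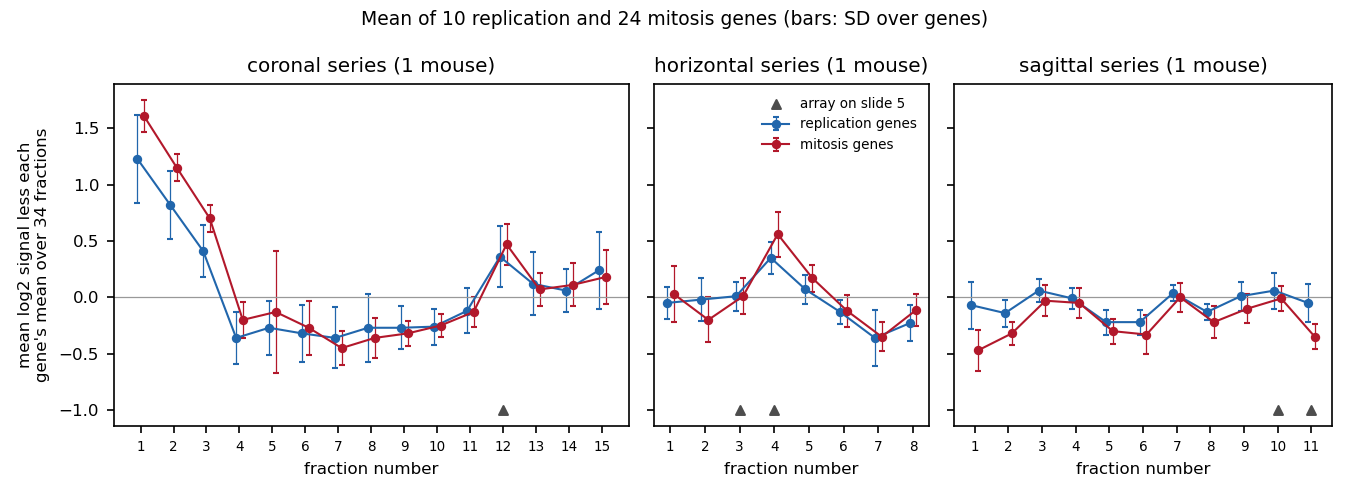
Mean log2 normalised signal of the 24 mitosis and the 10 replication genes, each gene relative to its own mean over 34 fractions, plotted against fraction number for the coronal, horizontal and sagittal brains. Both means are highest in coronal fraction 1 (1.61 and 1.23), with lower rises in coronal fraction 12 (0.47 and 0.36) and horizontal fraction 4 (0.56 and 0.35), while the sagittal means stay between -0.47 and 0.06.

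The horizontal brain was highest in fraction 4, where the mitosis mean was 0.56 (1.48-fold) and the replication mean 0.35 (1.28-fold), with 24 of 24 and 10 of 10 genes above their own mean. Fraction 5 was next at 0.17 and 0.07, and fraction 7 was lowest at -0.35 and -0.36. The sagittal brain was nearly flat. Its mitosis mean lay between -0.47 (fraction 1) and 0.00 (fraction 7) and its replication mean between -0.22 (fractions 5 and 6) and 0.06 (fractions 3 and 10). From lowest to highest fraction, the mitosis mean spanned 4.17-fold in the coronal, 1.88-fold in the horizontal and 1.39-fold in the sagittal brain, and the replication mean 3.02-fold, 1.64-fold and 1.22-fold. Division genes were thus at their highest in coronal fractions 1 to 3, and above their mean as a whole in coronal fraction 12 and horizontal fraction 4.

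Single genes followed the means closely. In the coronal brain 23 of 24 mitosis genes and 10 of 10 replication genes had their highest signal in fraction 1, the exception being Kif2c. Of all 25396 probes above background throughout, 11.9% were highest in that fraction. In the horizontal brain 21 of 24 and 8 of 10 were highest in fraction 4, as were 10.3% of all probes, and 17 and 7 were lowest in fraction 7. In the sagittal brain the highest signal was spread over fractions 7 (9 mitosis genes), 10 (6), 3 (5), 4 (3) and 9 (1), while the lowest lay in fraction 1 for 15 of 24. The SD over the 34 fractions had a median of 0.46 among the mitosis genes (0.37 to 0.61) and of 0.40 among the replication genes (0.20 to 0.49), beside 0.26 over all 25396 probes above background throughout. Pcna, the polymerase clamp, which also serves DNA repair, varied least of the 34.

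**Figure D2:**
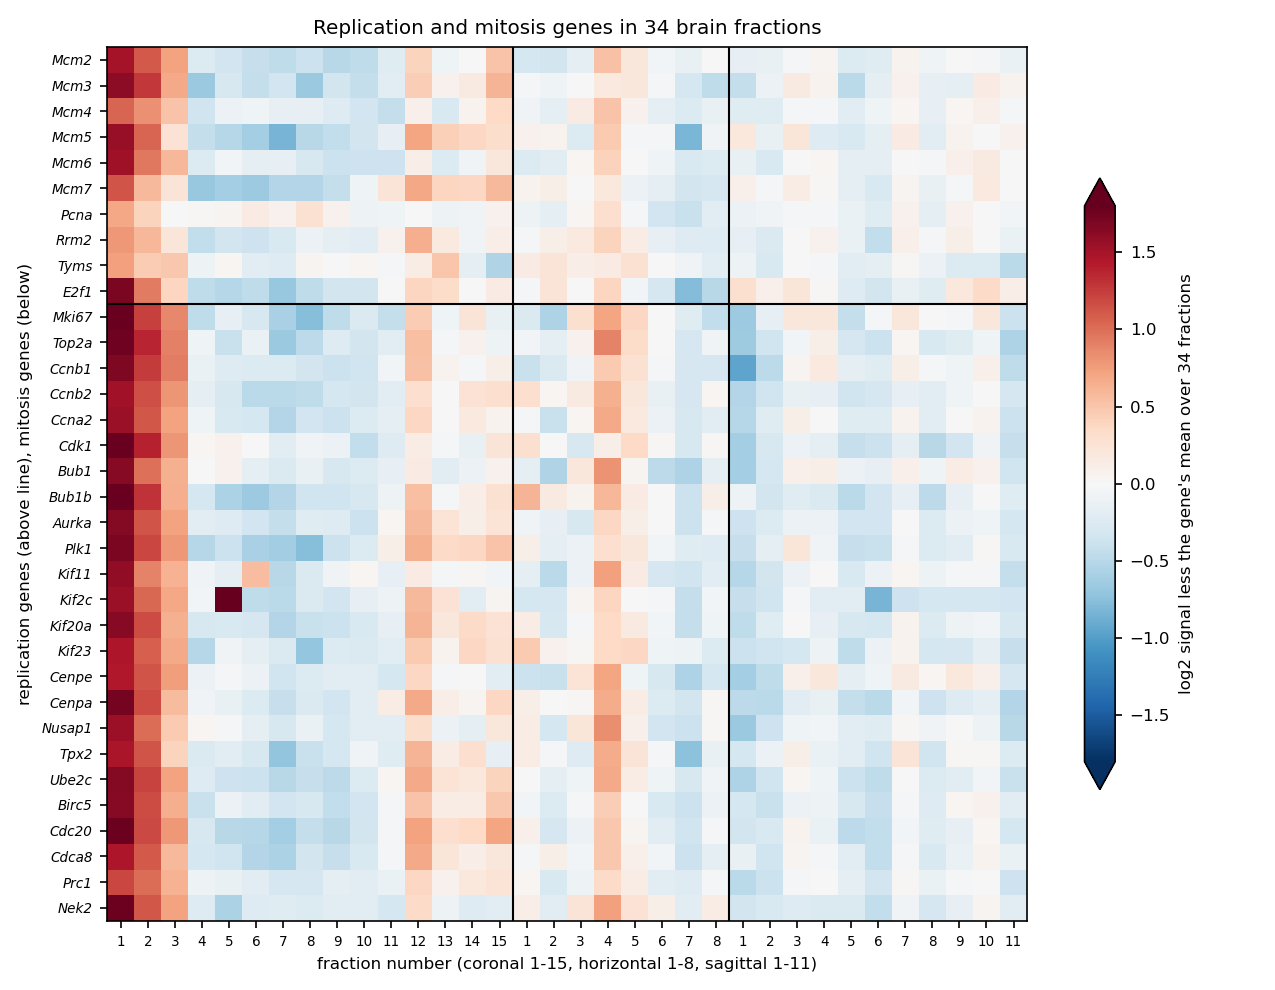
Log2 normalised signal of the 34 genes above background in all 34 fractions, each relative to its own mean, with genes in rows (replication above the line, mitosis below it) and fractions in columns by brain, on a colour scale cut at its ends. Coronal fractions 1 to 3 are high in nearly every row, Kif2c has a single high value in coronal fraction 5, and Pcna is the row that varies least.

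The first comparison set coronal fractions 1 to 3 against fractions 4 to 12, to ask which division genes differed between that end and the middle of the brain. Fraction 4, counted with the middle, also carried hindbrain markers, with a summed log2 level of 4.46. In limma, with p-values adjusted over all 34186 probes tested, 24 of 26 mitosis genes and 9 of 10 replication genes were higher in fractions 1 to 3 and 0 were lower. Over all probes, 5.32% were called higher and 7.08% lower. The median difference was 1.35 for the mitosis genes and 1.11 for the replication genes, against -0.06 over all probes. The called genes were 2.10- to 3.08-fold higher in mitosis and 1.51- to 2.85-fold higher in replication. In 21 of 26 mitosis and 5 of 10 replication genes every one of fractions 1 to 3 was above every one of fractions 4 to 12, an order that 5.42% of all probes had. Leaving out fraction 1 or fraction 2 left 5 replication genes called in each case, and 23 or 24 mitosis genes stayed above the threshold whichever of fractions 1 to 3 was left out. Over all probes, 613 were called higher without fraction 1 and 711 without fraction 2, against 1820 in the main setting.

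Scaling touched the balance of all probes in this comparison. Of the probes called, 42.9% were higher with the 75th percentile, 66.2% with the array median and 52.4% with quantile normalisation. The members' directions were the same under each.

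Among the replication genes, the MCM helicase subunits moved together but not by equal amounts. Mcm3 was 3.66, 3.33 and 2.73 in fractions 1, 2 and 3 and had a lowest, median and highest of 1.38, 1.71 and 2.5 in fractions 4 to 12. The groups did not overlap, and the difference was 1.51 ± 0.22 (SE; limma, adjusted p = 0.0013). Mcm2 was 1.96, 1.57 and 1.19 against -0.04, 0.07 and 0.86, also without overlap, a difference of 1.41 ± 0.20 (limma, adjusted p = 0.000975). Mcm6 was 5.97, 5.39 and 5.04 against 4.06, 4.2 and 4.56, a difference of 1.24 ± 0.17 (limma, adjusted p = 0.000855). All 3 fell in steps from fraction 1 to fraction 3, and the highest of fractions 4 to 12 in each was fraction 12. Fraction 15, outside this comparison, was above fraction 12 in all 3, at 2.67, 0.97 and 4.65. Mcm5 differed by 1.31 ± 0.28, Mcm4 by 0.99 ± 0.15 and Mcm7 by 0.94 ± 0.27, with limma adjusted p-values of 0.0101, 0.00135 and 0.0381. Mcm5 and Mcm7 overlapped with fractions 4 to 12.

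E2f1, which switches on many genes of S phase, was 2.32, 1.56 and 1.01 in fractions 1 to 3 against -0.06, 0.17 and 1.02. Fraction 3 lay just below the highest of the others, and the difference was 1.31 ± 0.24 (limma, adjusted p = 0.00444). The enzymes of nucleotide supply differed less. Rrm2, the small subunit of ribonucleotide reductase, differed by 0.67 ± 0.19 (limma, adjusted p = 0.0388), and Tyms, thymidylate synthase, by 0.59 ± 0.16 (limma, adjusted p = 0.0313). Pcna was 4.90, 4.60 and 4.21 against 4.11, 4.25 and 4.48, so that only fractions 1 and 2 stood above the rest, and its difference of 0.32 ± 0.13 was not called (limma, adjusted p = 0.106).

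Of the mitosis genes, Mki67 differed most. It was 4.24, 3.70 and 3.33 in fractions 1 to 3 against a lowest, median and highest of 1.69, 2.04 and 2.92 in fractions 4 to 12, a difference of 1.62 ± 0.22 or 3.08-fold (limma, adjusted p = 0.000889). Top2a, which untangles replicated chromosomes, was 2.08, 1.70 and 1.24 against -0.34, 0.10 and 0.87, a difference of 1.56 ± 0.21 (limma, adjusted p = 0.000821). In both genes fractions 1 to 3 lay wholly above the others.

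The cyclins and their kinase gave a close set of values. Ccnb1, cyclin B1, was 3.20, 2.78 and 2.44 against 1.13, 1.27 and 2.04, a difference of 1.45 ± 0.18 (limma, adjusted p = 0.000614). Its partner Cdk1 was 1.15, 0.76 and 0.16 against -1.07, -0.70 and -0.50, a difference of 1.41 ± 0.17 (limma, adjusted p = 0.0006). Neither overlapped with fractions 4 to 12. Ccnb2 and Ccna2 (cyclins B2 and A2) differed by 1.43 ± 0.17 and 1.35 ± 0.18.

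The mitotic kinases Plk1, Nek2 and Aurka, which act at centrosomes and the spindle, differed by 1.53 ± 0.25, 1.41 ± 0.19 and 1.33 ± 0.21. The checkpoint kinases Bub1 and Bub1b, which hold anaphase until chromosomes are attached, differed by 1.21 ± 0.17 and 1.54 ± 0.24. All 5 were called, with limma adjusted p-values from 0.000791 to 0.00238. Ttk was well above background in 3 of 3 fractions against 5 of 9, and its difference of 1.36 ± 0.44 was not called (limma, adjusted p = 0.0576).

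Cdc20, the activator of the anaphase-promoting complex, was 4.26, 3.68 and 3.27 against 1.88, 2.07 and 3.22, a difference of 1.51 ± 0.25 (limma, adjusted p = 0.00258). Fraction 3 lay just above fraction 12 in that gene, and fractions 4 to 11 lay well below. Ube2c, the ubiquitin-conjugating enzyme of the same complex, differed by 1.41 ± 0.23 and was called. Of the spindle motors and bundling proteins, Kif20a differed by 1.37 ± 0.22, Kif23 by 1.29 ± 0.20, Tpx2 by 1.21 ± 0.24, Nusap1 by 1.12 ± 0.18, Kif11 by 1.09 ± 0.20 and Prc1 by 1.07 ± 0.14. Of the centromere and chromosomal passenger genes, Birc5 (survivin) differed by 1.34 ± 0.21, Cdca8 (borealin) by 1.28 ± 0.23, Cenpa (the centromeric histone H3) by 1.25 ± 0.23 and Cenpe (a kinetochore motor) by 1.24 ± 0.15. All 10 of these spindle and centromere genes were called. Cenpf was also called (limma, adjusted p = 0.00737), but was well above background in 3 of 3 against 3 of 9 fractions.

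**Figure D3:**
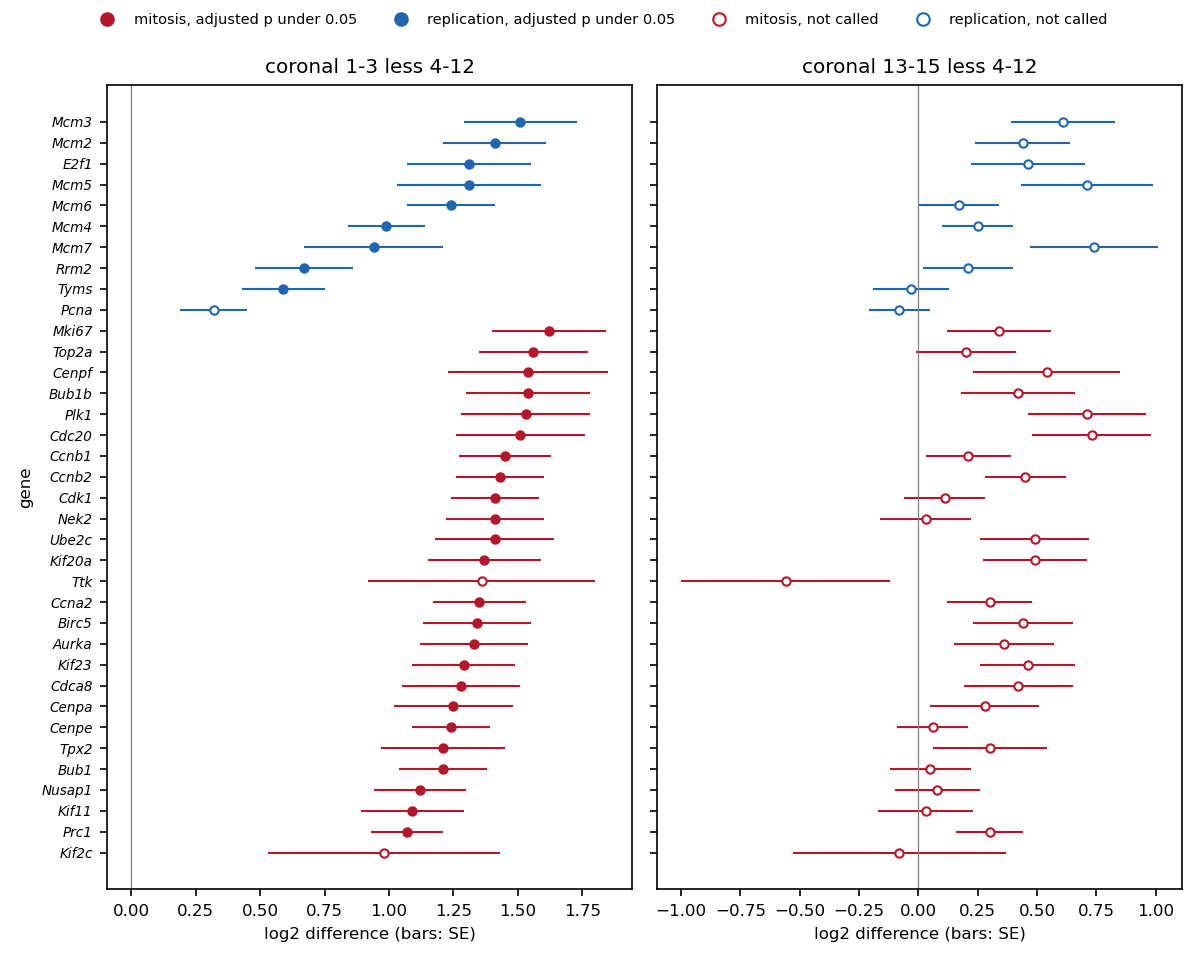
Difference in log2 normalised signal of coronal fractions 1 to 3 (left) and of fractions 13 to 15 (right) from fractions 4 to 12 for the 36 members tested, with bars of 1 SE from limma and filled points for called genes. On the left Mki67 (1.62) and Mcm3 (1.51) lie highest in their groups and Pcna (0.32) lowest of all, and on the right no point is filled and most lie above 0.

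Probes of 1 gene did not always give 1 answer. The chosen probe of Kif2c, a kinesin that takes microtubules apart, read -0.12 in coronal fraction 5 beside -2.43 and -2.83 in its neighbours, and its difference of 0.98 ± 0.45 was not called (limma, adjusted p = 0.172). The other Kif2c probe read -3.41 in fraction 5 and was called higher in fractions 1 to 3, by 1.40 ± 0.21 (limma, adjusted p = 0.00145). For Cdk1, a further probe that was above background in 22 fractions differed by 0.98 and was not called (limma, adjusted p = 0.14). For Birc5, 1 further probe was called higher by 1.5 ± 0.24 (limma, adjusted p = 0.0021), and another differed by 1.27 ± 0.47 and was not called (limma, adjusted p = 0.0885).

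Arrays came on 5 slides, which held different fractions, so that position and slide overlap in part. Coronal fractions 1 to 8 shared 1 slide. Within it, fractions 1 to 3 against 4 to 8 gave the same counts, 24 of 26 mitosis and 9 of 10 replication genes higher, with medians of 1.43 and 1.23. With the slide as a block over all 15 coronal fractions the counts were again 24 and 9. Over all probes, 1972 were called higher and 2591 lower within the slide, and 1751 and 2209 with the block.

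Coronal fraction 12 stood above its surroundings. All 24 mitosis genes and 9 of 10 replication genes were higher there than in both fraction 11 and fraction 13, as were 35.8% of all 25396 probes above background throughout. The median excess over the mean of the neighbours was 0.53 and 0.43, against 0.02 over all probes. Among fractions 4 to 15, fraction 12 was the highest for 21 of 24 mitosis and 4 of 10 replication genes. Mki67, for example, was 2.04, 2.92 and 2.39 in fractions 11, 12 and 13, and Mcm7 was 3.64, 4.11 and 3.80. Horizontal fraction 4 gave the same picture, with 22 of 24 mitosis and 8 of 10 replication genes above both neighbours, as were 25.6% of all probes, and a median excess of 0.48 and 0.34 against -0.02. Top2a was 0.41, 1.23 and 0.67 in horizontal fractions 3, 4 and 5, and Mcm2 was 0.30, 0.99 and 0.67.

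Both arrays lay on the same slide, the one that held arrays of all 3 brains, and the neighbours on either side of coronal fraction 12 lay on another. Of the other arrays on it, horizontal fraction 3 had means of 0.01 for both mitosis and replication. Sagittal fraction 10 had means of -0.01 and 0.06 and sagittal fraction 11 of -0.35 and -0.05, where the sagittal brain averaged -0.20 and -0.06. The median mitosis mean of the arrays on that slide was 0.01, against -0.16 to -0.11 on the other slides. The part of the slide in the rise of coronal fraction 12 and horizontal fraction 4 was not tested.

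At the other end of the coronal brain, fractions 13 to 15, 0 of 26 mitosis and 0 of 10 replication genes were called against fractions 4 to 12 in limma, where 5.6% of all probes were called higher and 7.4% lower. At an unadjusted p under 0.05 there were 5 mitosis and 4 replication genes in limma and 8 and 4 with limma's trended prior, beside 32.0% of all probes in limma and 32.9% with the trended prior. The medians were 0.30 and 0.34 against 0.06 over all probes, and 24 of 26 and 8 of 10 differences were above 0. The largest were those of Mcm7 (0.74 ± 0.27; limma, adjusted p = 0.0833), Cdc20 (0.73 ± 0.25; 0.0695), Plk1 (0.71 ± 0.25; 0.0753) and Mcm5 (0.71 ± 0.28; 0.102). Fraction 12 was the highest of fractions 4 to 12 in all 4. Without it, 9 mitosis genes (Cdc20, Plk1, Ccnb2, Kif20a, Ube2c, Cdca8, Kif23, Prc1 and Birc5) and 4 replication genes (Mcm2, Mcm3, Mcm5 and Mcm7) were called higher, Cdc20 by 0.86 ± 0.18 (limma, adjusted p = 0.00633) and Mcm7 by 0.86 ± 0.21 (limma, adjusted p = 0.012). Over all 34186 probes, 4597 were called higher and 4156 lower in that setting, against 1914 and 2529 in the main one. The setting was chosen after the values were seen. Within the slide that held fractions 9 to 11 and 13 to 15, which also leaves out fraction 12, 0 and 0 were called, with medians of 0.34 and 0.38. Over all probes, 93 were called higher and 440 lower within that slide.

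The 2 ends of the coronal brain were also set against each other. Of the mitosis genes 19 of 26, and of the replication genes 4 of 10 (Mcm2, Mcm3, Mcm4 and Mcm6), were higher in fractions 1 to 3 than in 13 to 15 and 0 were lower, where 5.16% of all probes were called higher and 5.54% lower. The median differences were 1.02 and 0.68, against -0.10 over all probes. Every one of fractions 1 to 3 was above every one of fractions 13 to 15 in 26 of 26 mitosis and 6 of 10 replication genes, and in 12.6% of all probes.

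In this comparison Top2a was 2.08, 1.70 and 1.24 against 0.30, 0.41 and 0.25, a difference of 1.36 ± 0.26 (limma, adjusted p = 0.00591). Cdk1 was 1.15, 0.76 and 0.16 against -0.66, -0.77 and -0.40, a difference of 1.30 ± 0.21 (limma, adjusted p = 0.00251). In both genes the ends were well apart. Mcm7 was 4.55, 4.00 and 3.64 against 3.80, 3.79 and 3.99, so that the ends overlapped, and its difference of 0.20 ± 0.33 was not called (limma, adjusted p = 0.715). Ttk, counted among the 19, was not well above background in any of fractions 13 to 15, which gives at least 2.31-fold against the lowest signal measured above background there (fitted limma, adjusted p = 0.0372). Cdc20 and Plk1 were not called, at 0.78 ± 0.31 and 0.82 ± 0.31 (limma, adjusted p = 0.108 and 0.0958). Of the 8 genes with several probes, further probes of Ube2c, Cdca8 and Kif2c were called here (0.95, 1.00 and 1.15) where the chosen ones were not, and further probes of Birc5 and Cdk1 were not called where the chosen ones were.

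The ends shared no slide, so that no value within 1 slide could be had. With the slide as a block, which the middle fractions link, 6 mitosis and 0 replication genes were called. Over all 34186 probes that block called 258 higher and 118 lower, against 1763 and 1894 in the main setting. Leaving out fraction 1 gave 10 and 1, fraction 2 gave 11 and 1, fractions 13 or 14 gave 12 and 2 each, and fraction 3 gave 22 and 6. Over all probes, leaving out a fraction gave from 813 (fraction 2) to 1573 (fraction 13) higher and from 565 to 1288 lower. Among called probes, 60.7% were higher with scaling by the array median against 48.2% with the 75th percentile. For fractions 13 to 15 against 4 to 12 these shares were 54.2% and 43.1%.

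In the horizontal brain, fractions 1 to 3 were set against 6 to 8. Limma called 0 of 26 mitosis and 0 of 10 replication genes, and called 0.231% of all probes higher and 0.386% lower. At an unadjusted p under 0.05 there were 0 and 2, and 0 and 3 with the trended prior, beside 16.9% and 18.2% of all probes. E2f1 differed most, at 0.61, 0.86 and 0.63 against 0.33, -0.15 and 0.13. The groups did not overlap, but the difference of 0.60 ± 0.18 was not called (limma, adjusted p = 0.173). Every one of fractions 1 to 3 was above every one of 6 to 8 in 5 of 10 replication genes and 2 of 26 mitosis genes, and in 14.1% of all probes. The medians were 0.25 for replication and 0.10 for mitosis, against 0.06 over all probes. Within the slide that held fractions 1, 2 and 6 to 8, 0 and 0 were called, with medians of 0.23 and 0.07.

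In the sagittal brain, the distance from fraction 6, taken as the midline, was fitted as a slope for each fraction outwards. Of the members only E2f1 was called, with a slope of 0.12 ± 0.02 (limma, adjusted p = 0.00625), where 18.3% of all probes rose outwards and 9.97% fell. E2f1 was 0.91, 0.72, 0.84, 0.65 and 0.39 in fractions 1 to 5, 0.30 in fraction 6, and 0.49, 0.41, 0.82, 0.97 and 0.75 in fractions 7 to 11. It was lowest at the midline and higher towards both sides. Within the slide of fractions 2 to 9 its slope was 0.13 and was not called (limma, adjusted p = 0.0635). The medians of the slopes were -0.02 for mitosis and 0.01 for replication. No mitosis gene was called, and 2 had an unadjusted p under 0.05 in limma (3 with the trended prior), both falling outwards, beside 40.0% of all probes (40.7%). With scaling by the array median, 82.4% of the probes called rose outwards, against 64.7% in the main setting.

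Fractions 7 to 11 were paired with their mirror fractions 1 to 5 to see how far the sides of 1 brain differed. Limma called 0 members and 0 of 34186 probes (0.0%), and 0 mitosis and 0 replication genes had an unadjusted p under 0.05 (3 and 1 with the trended prior, 3263 probes overall in limma). The median difference was 0.09 for mitosis and 0.07 for replication, against -0.01 over all probes, with 24 of 26 and 8 of 10 genes higher in fractions 7 to 11. The cerebellar granule markers had a median of 0.36 in the same comparison, with 9 of 9 higher and 0 called. The hindbrain and caudal markers had a larger median, 2.86, also with 9 of 9 higher and 0 called. Of the 10 hindbrain genes, only 1 was above background in every sagittal fraction. The forebrain markers had a median of -0.1, with 0 of 7 higher. Whether the assumed midline was the true one was not tested, nor was the part of these markers in the members' difference.

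The mitosis and replication means moved together, and the mitosis mean moved further. Over the 34 fractions Pearson's r was 0.953 and Spearman's rho 0.861, and r was 0.874 without coronal fractions 1 and 2. Neighbouring fractions of 1 brain share tissue and all genes of a fraction share 1 array, so these are descriptions. Within the coronal, horizontal and sagittal brain r was 0.985, 0.921 and 0.736. The horizontal value rested in part on fractions 4 and 7, without which it was 0.591. The SD of the mitosis mean was 1.33 times that of the replication mean.

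**Figure D4:**
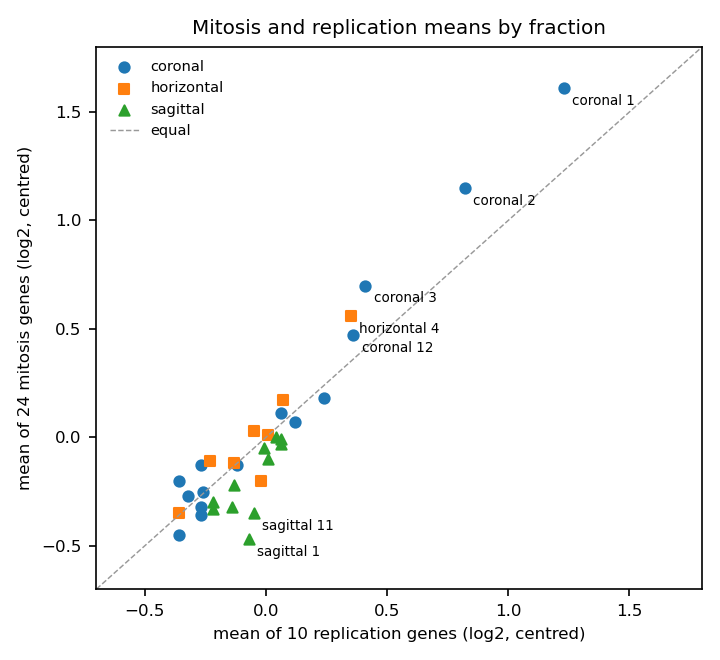
Mean of the 24 mitosis genes (vertical axis) against the mean of the 10 replication genes (horizontal axis), both in log2 relative to each gene's own mean, 1 point for each of the 34 fractions, marked by brain. Coronal fractions 1 to 3 lie highest on both axes, and the 11 sagittal fractions all lie where mitosis is below replication.

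The difference of the means was not the same in all fractions. The mitosis mean exceeded the replication mean by 0.38 in coronal fraction 1 and by 0.21 in horizontal fraction 4. It lay below the replication mean in all 11 sagittal fractions, by 0.04 in fraction 7 and most in the outermost fractions, where the difference was -0.40 in fraction 1 and -0.29 in fraction 11. Those 2 fractions joined 2 slabs each and lay on other slides than fractions 2 to 9, and the sagittal brain was a separate mouse, so that plane and mouse cannot be told apart here. Ccnb1 was 0.57 and 1.06 there, and 1.05 to 1.69 in sagittal fractions 2 to 10. Mcm2 was 0.31 and 0.34, and 0.21 to 0.53 between them.

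Pairs of mitosis genes had a median r of 0.89 over the 34 fractions (0.52 to 0.98, 276 pairs), pairs of replication genes 0.76 (0.37 to 0.95, 45 pairs) and mixed pairs 0.82 (0.35 to 0.95, 240 pairs). The line between the groups was not sharp. Cdca8 had an r of 0.974 with the replication mean and 0.949 with the mitosis mean.

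The rest of the pathway was read from lists of further genes. In coronal fractions 1 to 3 against 4 to 12, 52 of 60 other genes of G2 and mitosis were higher and 0 lower, with a median of 1.15. Spag5 (1.66 ± 0.22), Dlgap5 (1.61 ± 0.29) and Espl1 (separase, which cuts cohesin; 1.56 ± 0.21) differed most. Of 35 other S-phase genes 20 were higher and 1 lower, with a median of 0.79. Uhrf1, which carries DNA methylation over to the new strand, differed by 1.77 ± 0.22, Mcm10 by 1.66 ± 0.21 and the licensing factor Cdc6 by 1.38 ± 0.26, while Orc6, of the origin recognition complex, was lower (-0.34 ± 0.08). Over all probes 5.32% were called higher and 7.08% lower, and the list medians stood beside -0.06.

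Of 21 G1 cyclins, kinases and E2F family genes 10 were higher and 1 lower, with a median of 0.42. The shares over all probes in that comparison were 5.32% higher and 7.08% lower. E2f2 (1.68 ± 0.24) and the repressors E2f7 (1.41 ± 0.16) and E2f8 (1.36 ± 0.18) differed most, and Myc was lower (-0.68 ± 0.21; limma, adjusted p = 0.0444). The inhibitors of cyclin-dependent kinases moved the same way where they moved, with Cdkn1c (0.96 ± 0.20) and Cdkn2c (0.86 ± 0.15) higher, 2 of 7. In fractions 13 to 15 against 4 to 12 few of these genes were called. They were Tk1 (thymidine kinase, 0.85 ± 0.27) of 35 other S-phase genes, the G1 cyclin Ccnd3 (0.76 ± 0.19) of 21 and Cdkn1b (0.57 ± 0.18) of 7, all higher, and Cep55 of 60 other G2 and mitosis genes, lower (-0.81 ± 0.24), beside 5.6% higher and 7.4% lower over all probes.

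Along the sagittal axis 6 of 35 other S-phase genes rose outwards and 2 fell, and of 60 other G2 and mitosis genes 3 rose and 2 fell, beside 18.3% and 9.97% of all probes, so that neither list was called more often than probes at large. Chaf1a and Chaf1b, subunits of the assembly factor that sets histones on new DNA, rose by 0.12 ± 0.03 and 0.09 ± 0.02 for each fraction, and Ccnd3 and Ccnd1 by 0.12 ± 0.02 and 0.11 ± 0.02. Kntc1, a kinetochore protein, fell by 0.13 and Rbl1, a pocket protein, fell by 0.11. The largest slopes on these lists were those of 2 inhibitors, Cdkn2a, which rose by 0.29 ± 0.03 (limma, adjusted p = 0.000341), and Cdkn1a, which fell by 0.27 (limma, adjusted p = 0.00149).

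The genes outside the members most like the mitosis mean over the 34 fractions, of 13423 ranked by Pearson's r, were Racgap1 (0.979), Cdca3 (0.976), Kif22 (0.974), Depdc1b (0.964), Cdca2 (0.963), Foxm1 (0.961), Rrm1, Ncaph, Melk and Cdca5. Of these 10 only Depdc1b was not on the pathway lists. Most like the replication mean were Cdca5 (0.978), Dnph1 (0.972), Incenp (0.964), Kif22, Uhrf1, Rrm1, Kif4, Spc24, Racgap1 and Foxm1, with only Dnph1 not on the lists. Of the 50 most alike, 31 and 25 were on the lists, which held 114 of the genes ranked.

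Markers of several cell types moved along the same axis as the division genes. Of the cerebellar granule lineage, 7 of 9 markers tested were higher in coronal fractions 1 to 3 than in 4 to 12 and 0 lower, among them Gli1 (2.21 ± 0.24), the target of Sonic hedgehog signalling, and Neurod1 (2.18 ± 0.33). Over all probes 5.32% were called higher and 7.08% lower. The summed log2 level of the 11 markers was 7.11 to 7.22 in fractions 1 to 3, 5.12 to 6.22 in fractions 4 to 12 and 4.99 to 5.91 in fractions 13 to 15. It was 6.21 to 6.42 in horizontal fractions 4 and 5, 4.64 to 5.63 in fractions 1 to 3 and 5.59 to 6.01 in fractions 6 to 8. In coronal fractions 11, 12 and 13 the sum was 5.56, 5.12 and 4.99. The mean of the 6 markers above background throughout, each relative to its own mean, was -0.65, -0.53 and -0.51 there. That mean of 6 markers had an r of 0.70 with the mitosis mean over the 34 fractions.

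The hindbrain markers were higher in fractions 1 to 3 in 8 of 9 and the forebrain markers lower in 7 of 7. In the same comparison 5.32% of all probes were called higher and 7.08% lower. The markers of the subventricular zone and olfactory neuroblasts, which also divide, were lower in 8 of 12 and higher in 0. Their summed level was 5.34 to 5.57 in fractions 1 to 3, 5.57 to 7.13 in fractions 4 to 12, where fraction 12 was the highest, and 6.89 to 7.27 in fractions 13 to 15. Of the 12 markers, 1 (Sp8) was called higher in fractions 13 to 15 than in 4 to 12 and 0 lower, beside 5.6% and 7.4% of all probes. The summed level of the 12 markers was 7.17, 7.27 and 6.89 in fractions 13, 14 and 15. The mean of the 4 markers above background throughout, each relative to its own mean, was 0.08, 0.02 and -0.37 in these fractions. All 12 were above background in each of fractions 13 to 15 but only 4 in each of fractions 1 to 3. The mean of 4 therefore leaves out the markers absent from that end and does not stand for the list. The mitosis mean was 0.07, 0.11 and 0.18 in fractions 13, 14 and 15.

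Of the other lists, 4 of 7 astrocyte and radial glia markers, 3 of 7 cortical and dentate progenitor markers, 3 of 7 endothelial and pericyte markers, 2 of 6 meninges markers and 1 of 4 erythroid markers were higher in fractions 1 to 3, and 0 of each were lower, beside 5.32% and 7.08% of all probes. The meninges markers summed to 6.39 to 7.58 in fractions 1 to 3, 5.41 to 6.62 in fractions 4 to 12 and 6.25 to 7.77 in fractions 13 to 15. The astrocyte markers summed to 8.64 to 9.02, 8.29 to 9.07 and 8.17 to 9.40, the progenitor markers to 6.66 to 6.90, 6.13 to 6.43 and 6.29 to 7.22, and the endothelial markers to 5.27 to 5.79, 5.06 to 5.79 and 5.97 to 6.03. Of the oligodendrocyte precursor and microglia markers 0 were called, and of the 7 neuron markers 1, Map2, was lower. The part of each of these cell types in the differences of the division genes was not tested.

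**Figure D5:**
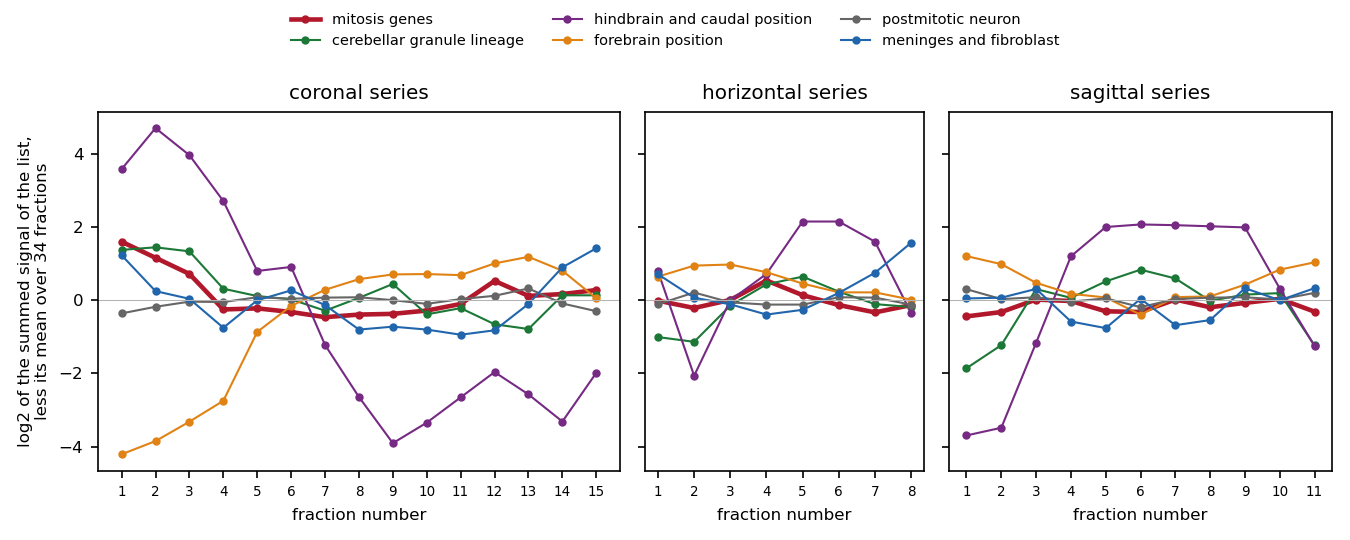
Log2 of the summed signal of the mitosis genes and of 5 marker lists (cerebellar granule lineage, hindbrain and caudal position, forebrain position, postmitotic neuron, meninges and fibroblast), each less its mean over the 34 fractions, by fraction in the 3 brains. In coronal fractions 1 to 3 the mitosis, granule lineage and hindbrain sums are all high and the forebrain sum is low, and in coronal fraction 12 the mitosis sum rises without the granule lineage sum.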

How the data were processed

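The authors hybridised Cy3-labelled RNA of each fraction to 1 Agilent array and deposited the scanner output of Feature Extraction (10.10.1.1), whose processed signal is a linear intensity after background subtraction. A log2 table that was deposited too, by the authors, matched log2 intensity less the array's 75th percentile within 0.02 for 99.9% of values and served as an alternative. Here that scaling was computed from the scanner intensities without outlier spots or control probes. Probes that rose well above background somewhere in every brain (34186) were fitted with limma 3.58.1 (R 4.3.3; Python 3.11.15, numpy 2.4.6, pandas 2.3.3, scipy 1.17.1), and p-values were adjusted by Benjamini-Hochberg with a threshold of 0.05. No spot was saturated. The number of arrays limits the precision. The members and lists were chosen with earlier results of these data known. Named outside the members were the 3 genes of each list with the largest called difference in each direction and the 10 most alike each mean. Promoters came from RefSeq (GRCm38.p6). Alternatives were array median and quantile scaling, normexp (offset 50) on the median signal, in place of the mean signal planned, no filter, other probe choices, limma's trended prior, slides and left-out fractions.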

Additional observations from a re-analysis of the deposited data

Results flagged for a closer look

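Horizontal fraction 4 lay far from the other horizontal fractions by Dixon's criterion in 4 genes. Mcm6 was 4.86 there and 4.16 to 4.48 in the others, Cenpa was 1.05 against 0.05 to 0.52, Ube2c 2.53 against 1.56 to 1.98, and Birc5 3.58 against 2.76 to 3.15. These were the 4 found in 74 groups searched (the 34 genes above background throughout, the mitosis mean, the replication mean and their difference, each over the 8 horizontal fractions and over the 5 sagittal mirror differences). Chance alone gives about 1 in every 20 groups, and the 4 found would be about as many as that in 74 independent groups. The groups are not independent, since they share arrays and their genes move together. The count therefore cannot decide for or against chance. All 4 came from 1 array.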

How the results depend on the processing

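Differences and slopes of genes that were called kept their sign in all 827 values under the alternatives. Of the 2581 values for genes not called, 131 changed sign, as did 10 of 476 values for the means of the gene groups, and the median sagittal slope of the mitosis genes was 0.02 within 1 slide against -0.02. The limits are those of the design: 1 array for each fraction, 1 mouse for each plane, slides that overlap with position, and an assumed sagittal midline. For coronal fractions 1 to 3 against 4 to 12, leaving out a fraction gave 23 to 24 mitosis and 5 to 9 replication genes called higher. For fractions 13 to 15 against 4 to 12, leaving out the array of the slide shared by all brains gave 9 and 4 where the main setting gave 0 and 0. Calls over all probes rose too, from 1914 to 4597 higher and from 2529 to 4156 lower. For the 2 ends, the slide as a block gave 6 and 0, and leaving out a fraction gave 10 to 22 and 1 to 6. Over all probes the block called 258 higher, against 1763 in the main setting. For the sagittal slope, the replication genes called higher were 2 with array median scaling and 0 within 1 slide; normexp on the median signal called 1 mitosis gene higher (Kif2c) and 1 lower (Nusap1); and leaving out a fraction gave 0 to 1 mitosis genes lower. The correlation of the means was 0.874 without the 2 fractions farthest from the median. In these and the other cases the cause was not tested. Of values for single genes and fractions, 3742 kept their side of the threshold or moved by less than the spread, 91 lost a call, 44 gained one and 7 moved. Of the values for the headline results, 367 stayed the same and 21 moved. With array median scaling the mitosis mean of horizontal fraction 4 was 0.79. Dim probes limit the values of Ttk and Cenpf. No paired analysis was possible because fraction numbers mark positions along different axes in different mice; the only pairs were the mirrored fractions of the sagittal brain. The setting without that slide's arrays, and the means without Kif2c, were chosen after seeing the data.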
